A study of Mus musculus with 15 samples.

Results

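The genes described here are 35 genes of cholesterol and fatty acid synthesis in mouse T cells and T cell lymphomas, chosen by name. Of these, 34 had a probe set listed with that single symbol, among 18193 genes with one, and all 34 were among the 11902 genes bright enough to test (an intensity of at least 100 in at least 3 arrays). Acat2, the cytosolic thiolase that starts the mevalonate pathway, was not analysed here. Expression arrays, 1 for each sample, measured the RNA of 9 peripheral T cell lymphomas (mPTCL 1 to 9), 3 samples of activated T cells and 3 of resting T cells. The lymphomas developed in CD3KO mice of the C57BL/6 strain, hosts that lack CD3, a part of the T cell receptor complex, after transfer of p53KO T cells. They were sorted from liver, and no age is given for them. The activated T cells were p53 KO cells stimulated in vitro, by an agent that the labels do not name, and the resting T cells were unstimulated p53 KO cells. Both came from C57Bl/6 mice aged 5 weeks and were sorted from liver or spleen. The normal T cells and the T cells that gave the lymphomas therefore lack p53, the tumour suppressor that halts division after DNA damage. No p53 loss is stated for the CD3KO hosts, so host cells in a lymphoma sample need not lack it. No sample of T cells with p53 serves as a control. For the normal cells the protocol also mentions donors injected with PBS or with heat-killed Streptococcus pneumoniae, without saying which sample had which. Whether each replicate is a different animal is not stated, so the p-values measure the spread between these samples, which may be partly technical.

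Cholesterol is built from acetyl-CoA through mevalonate and squalene, and fatty acids are built from the same acetyl-CoA by a carboxylase and a synthase and then lengthened and desaturated. Both routes are governed by the SREBP transcription factors, which are made as membrane proteins: the escort SCAP carries them to the Golgi for cutting when sterols are scarce, and INSIG proteins hold SCAP back when sterols are plentiful. Surplus cholesterol is exported by ABC transporters, whose genes are targets of the oxysterol receptors LXR. In T cells these synthesis genes are known to be raised on activation, when a dividing cell has to make new membrane.

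Values below are log2 intensities, floored at 32 (5 on the log2 scale), and 1 unit is a 2-fold difference on 1 probe set. Levels of different genes were not compared. The submitters name software version 1.1 for the lymphomas and none for the normal cells, so processing and group cannot be told apart in either lymphoma comparison. A gene was called when limma's adjusted p was under 0.05 and the change at least 2-fold. The median intensity of an array was 68.0 to 116 in lymphomas, 110 to 118 in activated and 91.7 to 99.2 in resting cells. The actin 3′/5′ signal ratio, a measure of RNA integrity that is higher in degraded RNA, was 1.47 to 2.65, 1.49 to 1.54 and 1.26 to 1.50 in the same order. The mean of 6 T cell markers was 8.78 to 12.36 in lymphomas, 12.68 to 12.76 in activated and 12.96 to 13.28 in resting cells, and Cd3e, a chain of the T cell receptor complex, stood at the floor in mPTCL 4 and at 5.68 in mPTCL 3. The mean of 10 neutrophil markers was 5.59 to 12.17 in lymphomas, 5.65 to 5.94 in activated and 5.63 to 5.97 in resting cells. The mean of 14 macrophage markers was 5.69 to 10.24, 5.55 to 5.75 and 6.99 to 7.64, and that of 10 B cell markers 6.15 to 11.39, 7.15 to 8.78 and 8.44 to 9.12. The mean of 9 hepatocyte markers was 5.10 to 7.35 in lymphomas, with mPTCL 8 highest, 5.59 to 5.82 in activated and 5.30 to 5.51 in resting cells. In mPTCL 8 Alb was at 11.22, Ttr at 7.93, Fgb at 7.73 and Apoa1 at 7.51, while Tat was at the floor there and in the other 8 lymphomas.

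The first comparison set activated against resting p53 KO T cells, to ask what stimulation in vitro changed. Of the 34 genes, 13 rose in activated cells (38.2%, against 8.45% of all 11902 genes called higher) and 0 fell (4.23% of all genes; 27 of the 34 had an unadjusted p under 0.05). The median change of the 34 was 0.87 log2 units, against 0.02 over all tested genes. By role, 4 of 6 mevalonate enzymes, 3 of 10 sterol enzymes, 1 of 3 carrier and export genes, 0 of 3 fatty acid synthesis enzymes, 5 of 7 desaturation and elongation enzymes and 0 of 5 regulators rose. The mean of 9 cell division genes moved with these, at 11.32 to 11.50 in activated and 7.99 to 8.42 in resting cells, and its part in the result was not tested. Of 12 tested macrophage markers 7 fell, with a mean over 14 of 5.55 to 5.75 in activated and 6.99 to 7.64 in resting cells. In bulk samples such as these, fewer cells of a type and less RNA per cell cannot be told apart.

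**Figure D1:**
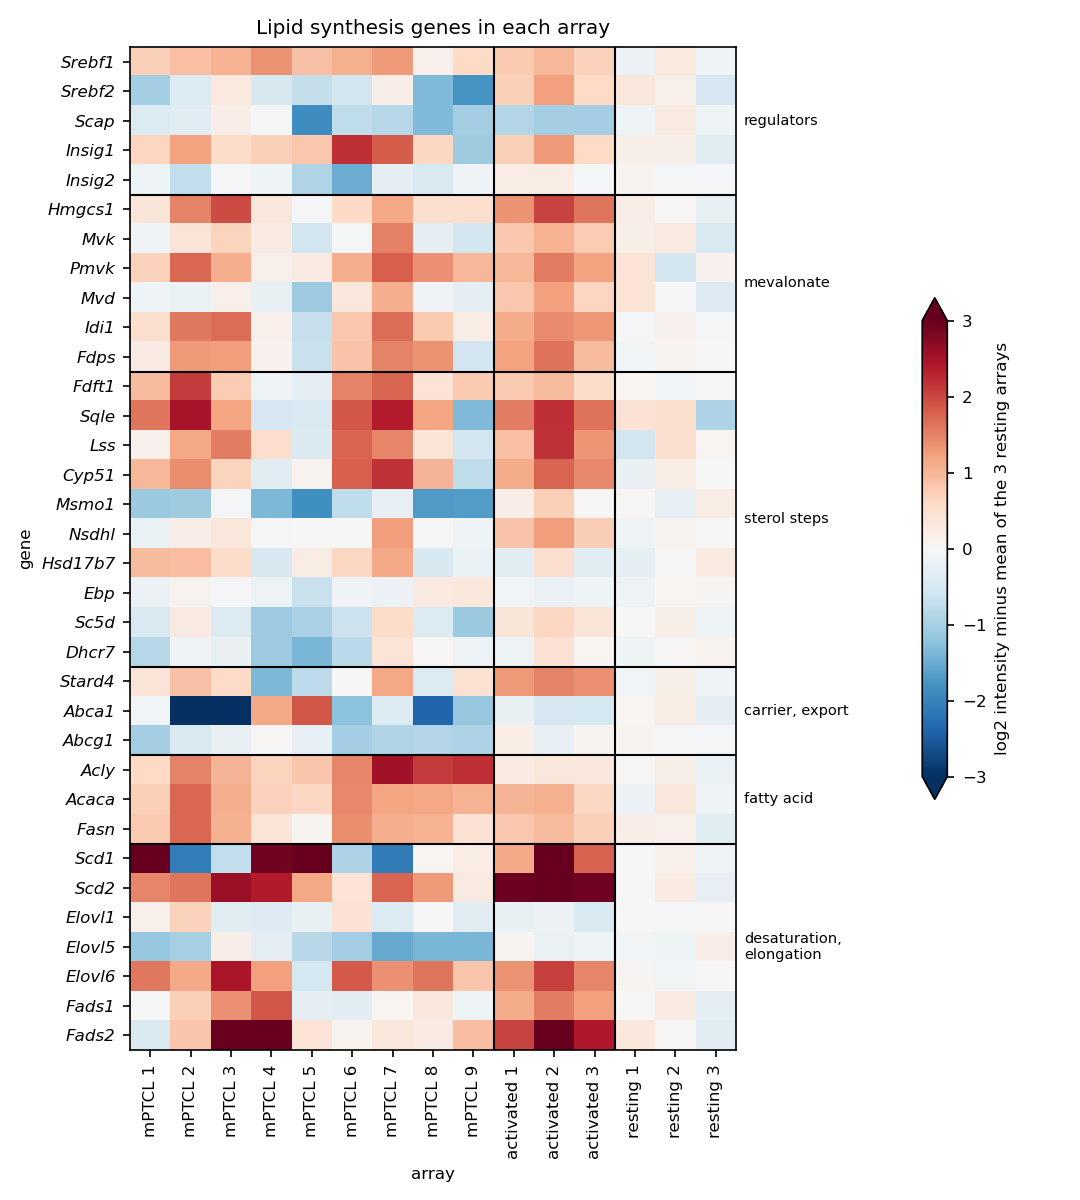
Log2 intensity of each of the 34 measured genes (down) in each of the 15 arrays (across), shown as the difference from the gene's mean over the 3 resting arrays; red is higher, blue is lower and colours saturate at 3 units. The activated arrays are red through most mevalonate and desaturase rows, while the lymphoma columns differ from each other.

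Among the mevalonate enzymes, Hmgcs1, which condenses acetyl-CoA units to HMG-CoA, was at 12.33, 13.00 and 12.57 in activated cells and at 11.17, 11.00 and 10.75 in resting cells. Every activated array lay above every resting one, and the rise was 1.66 ± 0.19 (SE over 3 and 3 arrays, log2 scale; limma adjusted p = 0.00168), or 3.15-fold. Idi1, the isomerase that interconverts the isoprenoid building blocks, was at 11.38, 11.68 and 11.57 in activated cells and at 10.22, 10.39 and 10.20 in resting cells. Its rise of 1.27 ± 0.11 (adjusted p = 5.80e-04) had the smallest SE of the 6 mevalonate enzymes. Fdps, which joins those units to farnesyl diphosphate, was at 11.22, 11.65 and 10.97 in activated cells, against 9.94, 10.10 and 10.00 in resting cells (1.27 ± 0.17, adjusted p = 0.00303), but with the mean of its probe sets the change was 0.60. Pmvk, phosphomevalonate kinase, was at 9.56, 10.13 and 9.78 in activated cells and at 8.98, 8.03 and 8.70 in resting cells, without overlap (1.25 ± 0.28, adjusted p = 0.0168). The other kinase, Mvk, and the decarboxylase Mvd had changes of 0.87 ± 0.23 (adjusted p = 0.0298) and 0.89 ± 0.25 (adjusted p = 0.0375), under 2-fold.

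In the sterol steps, Sqle, the squalene epoxidase that is a rate-limiting step of the pathway, was at 10.44, 11.08 and 10.53 in activated cells and at 9.34, 9.38 and 7.97 in resting cells. The groups were apart, although resting replicate 3 lay well below the other two, and the rise was 1.79 ± 0.40 (3.45-fold, adjusted p = 0.0180). Lss, which closes squalene epoxide into the sterol ring, was at 9.67, 10.94 and 10.09 in activated cells and at 8.23, 9.25 and 8.83 in resting cells (1.46 ± 0.38, adjusted p = 0.0301). Cyp51, the lanosterol demethylase, was at 9.94, 10.59 and 10.28 in activated cells, against 8.61, 9.06 and 8.83 in resting cells (1.43 ± 0.20, adjusted p = 0.00344). Msmo1, the sterol methyl oxidase, was at 11.02, 11.53 and 10.85 in activated cells and at 10.85, 10.56 and 11.03 in resting cells, which overlap (0.32 ± 0.20, adjusted p = 0.284). Its other bright probe set gave 1.08, which did not pass when it stood for the gene. Of the remaining 6, Fdft1, the squalene synthase, Nsdhl and Sc5d had changes of 0.77, 0.95 and 0.45 with adjusted p of 0.00607, 0.00531 and 0.0335, under 2-fold. Hsd17b7, Ebp and Dhcr7, which act late in the route, had changes of -0.05, -0.13 and 0.11.

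The promoters of these enzymes are shown because sterol enzymes share short upstream sequences known to bind SREBP and its partners NF-Y and Sp1. Of the 7 called mevalonate and sterol enzymes, 5 had an entry in a RefSeq promoter table (GRCm38.p6, 250 bases before to 50 after the start), and the 4 printed were those that held both CCAAT and GGGCGG before the start. The one not printed, Pmvk, had the NF-Y form, with its first base at position -136, and lacked the Sp1 form. The bases before the start are given 5′ to 3′ on the gene's strand, with CCAAT (NF-Y form), GGGCGG (Sp1 form) and TCACNCCAC (a sterol regulatory element form) on either strand in capitals.
Hmgcs1, chr13:119690101-119690350, plus strand: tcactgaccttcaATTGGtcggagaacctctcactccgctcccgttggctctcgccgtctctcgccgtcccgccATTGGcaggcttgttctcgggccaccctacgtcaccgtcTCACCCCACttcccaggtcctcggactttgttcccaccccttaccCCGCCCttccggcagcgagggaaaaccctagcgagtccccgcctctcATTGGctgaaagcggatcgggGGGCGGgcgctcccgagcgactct
Idi1, chr13:8885356-8885605, plus strand: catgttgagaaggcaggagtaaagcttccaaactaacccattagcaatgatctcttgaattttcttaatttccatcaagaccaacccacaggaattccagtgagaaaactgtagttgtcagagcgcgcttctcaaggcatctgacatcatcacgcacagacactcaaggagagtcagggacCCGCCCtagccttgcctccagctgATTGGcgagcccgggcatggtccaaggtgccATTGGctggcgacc
Lss, chr10:76531355-76531604, plus strand: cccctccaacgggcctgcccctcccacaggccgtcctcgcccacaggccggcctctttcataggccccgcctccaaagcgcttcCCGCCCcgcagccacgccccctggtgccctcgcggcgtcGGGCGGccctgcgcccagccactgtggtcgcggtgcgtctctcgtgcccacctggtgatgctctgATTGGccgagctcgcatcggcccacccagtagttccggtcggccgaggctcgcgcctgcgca
Cyp51, chr5:4104698-4104947, minus strand: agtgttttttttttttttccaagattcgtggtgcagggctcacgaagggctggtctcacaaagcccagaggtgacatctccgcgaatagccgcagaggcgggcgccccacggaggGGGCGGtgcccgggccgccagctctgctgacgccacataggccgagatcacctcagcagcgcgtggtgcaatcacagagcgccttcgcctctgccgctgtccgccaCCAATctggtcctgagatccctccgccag
The Hmgcs1 stretch was the only promoter of a listed gene with TCACNCCAC, whose first base lies at position -137 from the start, and the stretch printed held CCAAT at 3 places and GGGCGG at 2. TCACNCCAC was in 1 of the 36 promoters of listed genes, against 1.24% of 32851 promoters. CCAAT was in 22 of the 36 promoters of listed genes (61.1%), against 37.4% of all promoters, and GGGCGG in 27 of the 36 (75%), against 35.7%. Counted by gene, where any of a gene's promoters may hold the letters, each was found for 13 of 14 mevalonate and sterol genes with an entry, the exceptions being Acat2 for the NF-Y form and Pmvk for the Sp1 form. CACGTG, an E-box form, was in 22.2% of the promoters of listed genes and in 7.15% of all. Of these 14 genes, Acat2 has no expression value here, and the others include genes that rose and genes that did not. These matches are letters in a window and are not measured binding.

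The carrier and export genes split. Stard4, which moves sterol between membranes inside the cell, was at 11.13, 11.35 and 11.22 in activated cells and at 9.78, 10.04 and 9.76 in resting cells, with narrow and well separated groups (1.37 ± 0.11, 2.59-fold, adjusted p = 5.27e-04). The exporters Abca1 and Abcg1 had changes of -0.42 ± 0.17 (adjusted p = 0.114) and 0.02 ± 0.13 (adjusted p = 0.946). The other bright probe sets of Abca1 gave 0.44 and 0.39, opposite in sign.

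The largest rises were in fatty acid desaturation. Scd2, a stearoyl-CoA desaturase that makes monounsaturated fatty acids, was at 14.22, 14.50 and 14.20 in activated cells and at 11.28, 11.53 and 11.05 in resting cells. The groups lay far apart, and the rise was 3.02 ± 0.15 log2 units (8.11-fold, adjusted p = 1.02e-04). Its 3 probe sets gave 3.02, 3.60 and 2.64. Its relative Scd1 was at 9.15, 11.49 and 9.79 in activated cells and at 8.03, 8.18 and 7.86 in resting cells, with activated replicate 2 well above the others (2.12 ± 0.56, adjusted p = 0.0308). Fads2, the desaturase that opens the route to polyunsaturated fatty acids, was at 7.94, 9.01 and 8.30 in activated cells and at 6.22, 5.94 and 5.56 in resting cells (2.51 ± 0.34, 5.71-fold, adjusted p = 0.00282). Fads1, the next desaturase of that route, rose by 1.29 ± 0.19 (adjusted p = 0.00365), but its other bright probe set gave 0.50, and averaging both removed the call. Elovl6, which lengthens palmitate, was at 9.39, 10.10 and 9.51 in activated cells and at 8.12, 7.96 and 8.04 in resting cells (1.63 ± 0.22, adjusted p = 0.00275). The elongases Elovl1 and Elovl5 had changes of -0.28 and -0.09.

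The enzymes that supply fatty acids stayed under 2-fold on activation with all arrays. Acaca, the acetyl-CoA carboxylase, was at 9.75, 9.80 and 9.35 in activated cells and at 8.54, 9.05 and 8.59 in resting cells (0.91 ± 0.20, adjusted p = 0.0168). It was called higher without resting replicate 2 (1.07, adjusted p = 0.0142) and without activated replicate 3 (1.05, adjusted p = 0.0267). Fasn, the fatty acid synthase, had a change of 0.82 ± 0.17 (adjusted p = 0.0132). Acly, which makes cytosolic acetyl-CoA from citrate, was at 11.41, 11.50 and 11.50 in activated cells and at 11.19, 11.34 and 10.96 in resting cells (0.31 ± 0.11, adjusted p = 0.0798).

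Among the regulators, changes on the probe sets used were also under 2-fold with all arrays. Srebf1, which codes for the SREBP of fatty acid genes, was at 11.02, 11.21 and 10.91 in activated cells and at 10.05, 10.52 and 10.10 in resting cells (0.83 ± 0.15, adjusted p = 0.00897). Srebf2, the SREBP of cholesterol genes, was at 10.69, 11.20 and 10.57 in activated cells and at 10.32, 10.12 and 9.47 in resting cells (0.85 ± 0.26, adjusted p = 0.0489). In both, each activated array lay above each resting one. The second bright probe set of Srebf2 gave 1.08, and without resting replicate 1 Srebf2 was called higher (1.02, adjusted p = 0.0461). Insig1, itself a known SREBP target, was at 8.59, 9.14 and 8.46 in activated cells and at 8.05, 8.05 and 7.51 in resting cells (0.86 ± 0.26, adjusted p = 0.0492). Insig2 was at 10.01, 10.00 and 9.73 in activated cells and at 9.88, 9.75 and 9.73 in resting cells (0.13 ± 0.12, adjusted p = 0.466). Scap, the SREBP escort, ran the other way, at 9.82, 9.68 and 9.66 in activated cells and at 10.56, 10.95 and 10.56 in resting cells (-0.97 ± 0.13, 1.96-fold, adjusted p = 0.00317). It passed 2-fold with quantile-normalised arrays (-1.02, adjusted p = 0.00395), and also when resting replicate 1, resting replicate 3 or activated replicate 1 was left out (-1.03, -1.04 and -1.02).

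**Figure D2:**
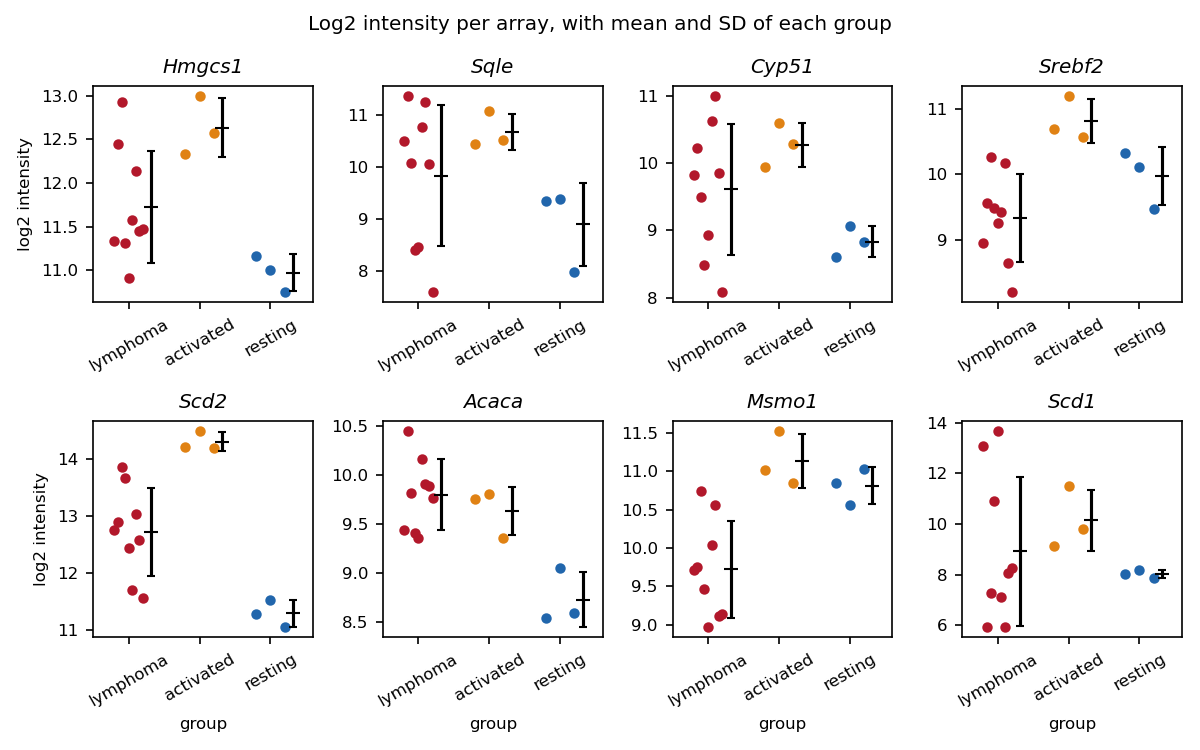
Log2 intensity of 8 genes (1 panel each) in lymphomas, activated and resting cells, from left to right; each point is 1 array and the bar beside the points is the mean ± SD. Scd2 at 14.20 to 14.50 in activated cells stands above all lymphomas and resting samples, and Scd1 in lymphomas spans 5.93 to 13.69.

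Activated replicate 2 was the highest activated array for 28 of the 34 genes and for 15 of 16 mevalonate and sterol enzymes. How often it was highest over all tested genes was not counted. Without it, 10 genes were called, 4 of them mevalonate or sterol enzymes (Hmgcs1, Idi1, Fdps and Cyp51, against 7 with it). Sqle (adjusted p = 0.0682), Lss (0.0747) and Pmvk (0.0635) were the calls lost. Sqle and Pmvk were also lost without activated replicate 3 (0.0551 and 0.0573), and Pmvk without resting replicate 2 (a change of 0.99). Lss was lost without resting replicates 1 and 3 and activated replicate 3 (0.0805, 0.0807 and 0.0782), and Scd1 without resting replicates 1, 2 and 3 and activated replicate 3 (0.0778, 0.0691, 0.0944 and 0.0698). Scd1, Pmvk, Sqle and Lss were not called without the brightness filter (0.104, 0.0582, 0.0708 and 0.0991), nor Scd1 and Lss with a floor of 64 (0.0524 and 0.0503). When 1 fit took in all 15 arrays, and so the lymphoma spread as well, Hmgcs1 and Scd2 were the 2 calls that remained.

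The second comparison asked how the lymphomas, grown from p53 KO T cells, differ from resting p53 KO T cells. Of the 34 genes, 3 rose in lymphomas (8.82%, close to the 7.03% of all genes called higher) and 0 fell (6.84% of all genes; 10 of the 34 had an unadjusted p under 0.05), so the count does not set these genes apart. The median change was 0.50 log2 units, against -0.02 over all tested genes. The 3 that rose, Acly, Acaca and Scd2, all act in fatty acid synthesis, 3 of 10 enzymes there, and 0 of 16 mevalonate and sterol enzymes passed (2 with an unadjusted p under 0.05).

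Acaca in lymphomas ran from 9.35 to 10.45 with a median of 9.81, and was at 8.54, 9.05 and 8.59 in resting cells. All 9 lymphomas lay above all resting samples, and the rise was 1.07 ± 0.26 (SE, n = 9 and 3; 2.10-fold, limma adjusted p = 0.0144). Its second probe set gave 0.99. Acly in lymphomas ran from 11.76 to 13.68 with a median of 12.63, again above the resting values of 11.19, 11.34 and 10.96 (1.43 ± 0.39, 2.69-fold, adjusted p = 0.0235). mPTCL 7, 8 and 9 had the highest Acly values. The call rests on 1 probe set whose identifier marks a match to several transcripts: the other bright ones gave 0.57 and -0.31, and without such probe sets the change was 0.57 (adjusted p = 0.432). Fasn, the enzyme that follows Acaca, differed by 0.89 ± 0.32 (adjusted p = 0.0669).

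Scd2 in lymphomas ran from 11.56 to 13.86 with a median of 12.75, above the resting values of 11.28, 11.53 and 11.05 (1.43 ± 0.42, 2.70-fold, adjusted p = 0.0334). The lowest lymphoma, mPTCL 9, was only just above the highest resting sample. The other probe sets of Scd2 gave 0.76 and 0.65, and with the mean of probe sets the change was 0.95 (adjusted p = 0.155). The Scd2 call was also lost without the brightness filter (adjusted p = 0.0664), with quantile normalization (0.0504), and without the lymphomas high in neutrophil (0.0945), B cell (0.0513) or macrophage (0.0591) markers. Elovl6 in lymphomas ran from 7.51 to 10.48 with a median of 9.41, and was at 8.12, 7.96 and 8.04 in resting cells. mPTCL 5 alone lay below the resting values, and the difference of 1.28 ± 0.46 did not pass (adjusted p = 0.0696), but did without mPTCL 5 (1.51, adjusted p = 0.00590).

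For every mevalonate and sterol enzyme tested, the lymphoma values overlapped with those of resting cells. Hmgcs1 in lymphomas ran from 10.91 to 12.93 with a median of 11.47, and was at 11.17, 11.00 and 10.75 in resting cells (0.76 ± 0.36, adjusted p = 0.161). Its other bright probe sets gave 0.66, 0.66, 0.59 and -0.02. Sqle in lymphomas ran from 7.58 to 11.38 with a median of 10.09, and was at 9.34, 9.38 and 7.97 in resting cells (0.94 ± 0.76, adjusted p = 0.408). The lymphomas lay on both sides of the resting values, above them in 6 cases. Msmo1 ran from 8.97 to 10.75 in lymphomas with a median of 9.71, against 10.85, 10.56 and 11.03 in resting cells (-1.09 ± 0.37, adjusted p = 0.0555). Srebf1 in lymphomas ran from 10.38 to 11.56 with a median of 11.12, against 10.05, 10.52 and 10.10 in resting cells (0.89 ± 0.24, 1.85-fold, adjusted p = 0.0241), while Srebf2 ran from 8.20 to 10.27 with a median of 9.43, against 10.32, 10.12 and 9.47 (-0.64 ± 0.40, adjusted p = 0.289). The change of the elongase Elovl5 was also negative (-0.93 ± 0.31, adjusted p = 0.0551).

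The calls depended on the arrays used. Without resting replicate 1 or 3, 0 genes were called, with adjusted p of 0.0866 and 0.110 for Acly, 0.0822 and 0.0781 for Acaca, and 0.114 and 0.139 for Scd2. Without resting replicate 2 the calls were Acaca and Srebf1 (1.04, adjusted p = 0.0499), while Acly (0.0749) and Scd2 (0.0890) were lost. Without mPTCL 2 Acly alone was called (Acaca a change of 0.99, Scd2 0.0504), and without mPTCL 5 Pmvk and Elovl6 joined the 3. Neutrophil markers were high in 6 lymphomas (mPTCL 1, 2, 4, 5, 8 and 9). With the other 3 alone, 9 genes were called higher and 0 lower: Srebf1, Idi1, Fdps, Fdft1, Lss, Acly, Acaca, Fasn and Elovl6, so 2 of the 3 calls of the whole set and 4 mevalonate or sterol enzymes. Without the 3 lymphomas with high macrophage markers (mPTCL 1, 4 and 5), 8 genes were called higher, among them Hmgcs1 (1.03, adjusted p = 0.0490) and Pmvk (1.35, adjusted p = 0.00942).

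**Figure D3:**
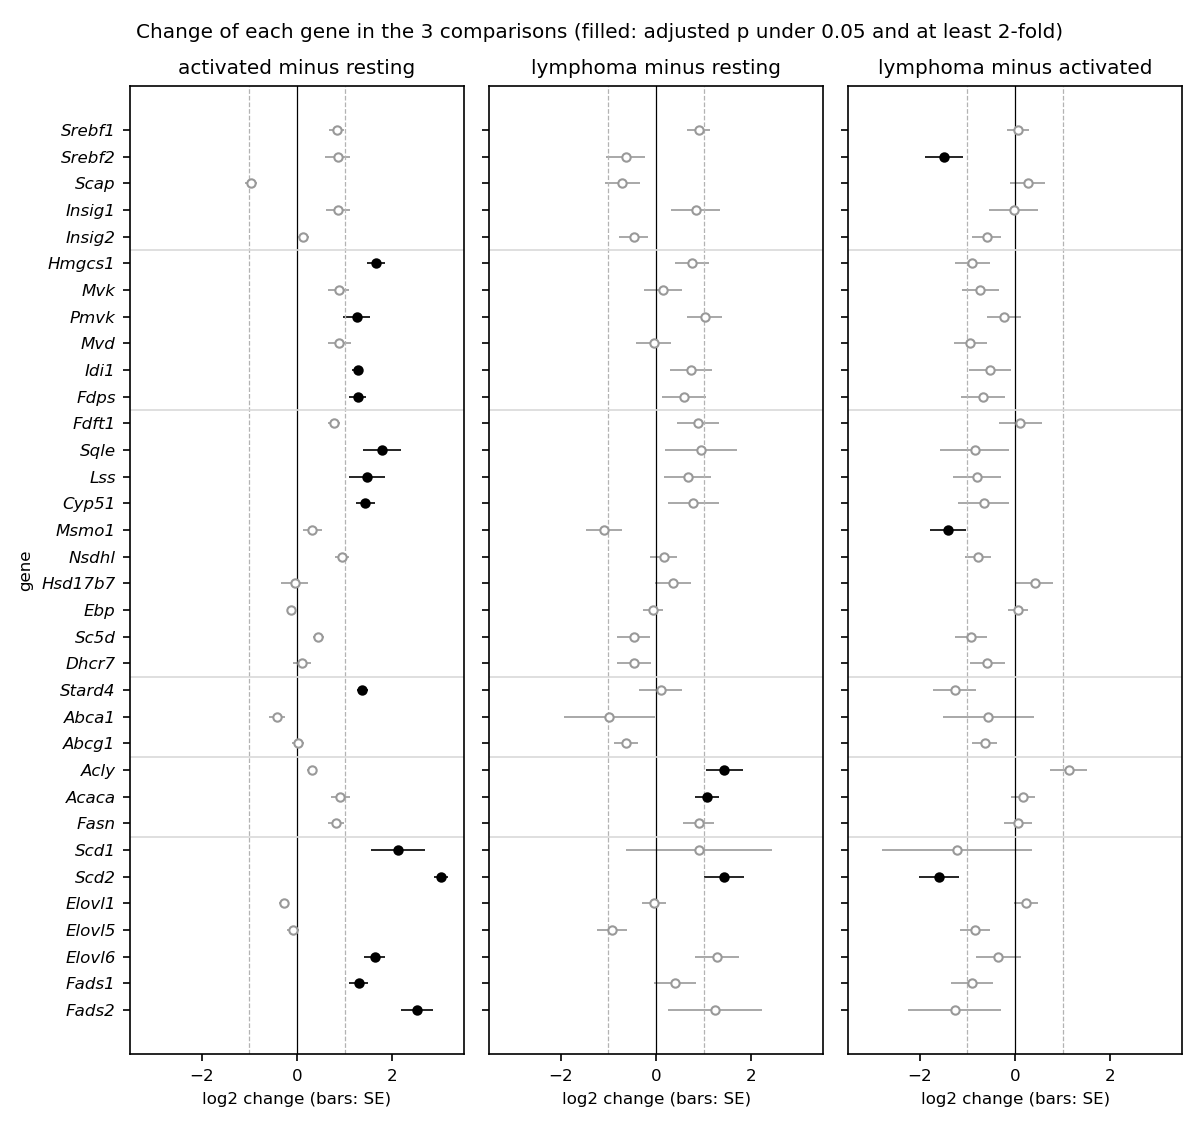
Log2 change of each of the 34 genes with its SE in the 3 comparisons (panels); filled points passed an adjusted p of 0.05 and 2-fold (dashed lines). There are 13 filled points in activated minus resting, all to the right, 3 to the right in lymphoma minus resting and 3 to the left in lymphoma minus activated.

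The third comparison set the lymphomas against activated cells, which also divide: the mean of 9 cell division genes was 9.96 to 12.53 in lymphomas and 11.32 to 11.50 in activated cells. Of the 34 genes, 0 rose in lymphomas (7.04% of all genes) and 3 fell (8.82%, close to the 8.28% of all genes called lower; 11 of the 34 had an unadjusted p under 0.05), so this count does not set the genes apart either. The median change was -0.65 log2 units, against -0.08 over all tested genes. This comparison shares its lymphomas with the second and its activated cells with the first.

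Srebf2 in lymphomas ran from 8.20 to 10.27 with a median of 9.43, and was at 10.69, 11.20 and 10.57 in activated cells. Every lymphoma lay below every activated sample, and the change was -1.49 ± 0.39 (SE over 9 and 3 arrays, log2 scale; limma adjusted p = 0.0188), or 2.80-fold. Its second probe set gave -1.47. Srebf1 did not share this, at 10.38 to 11.56 in lymphomas with a median of 11.12 and at 11.02, 11.21 and 10.91 in activated cells (0.06 ± 0.23, adjusted p = 0.875). Msmo1, at 8.97 to 10.75 in lymphomas with a median of 9.71, was at 11.02, 11.53 and 10.85 in activated cells, without overlap (-1.41 ± 0.37, 2.65-fold, adjusted p = 0.0191). Scd2, at 11.56 to 13.86 in lymphomas with a median of 12.75, was at 14.22, 14.50 and 14.20 in activated cells (-1.59 ± 0.42, 3.00-fold, adjusted p = 0.0190). Scd2 thus lay between the normal states in all 9 lymphomas.

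Stard4 in lymphomas ran from 8.52 to 11.01 with a median of 10.24, below all activated values of 11.13, 11.35 and 11.22, but did not pass (-1.27 ± 0.45, adjusted p = 0.0597). Acly ran from 11.76 to 13.68 in lymphomas, above all activated values of 11.41, 11.50 and 11.50 (1.12 ± 0.39, adjusted p = 0.0557). This again rests on the probe set marked as matching several transcripts, and the other bright ones gave 0.30 and -0.28. Of the remaining regulators, Insig1 in lymphomas ran from 6.80 to 10.06 with a median of 8.59 (-0.03 ± 0.52, adjusted p = 0.971) and Insig2 from 8.31 to 9.72 with a median of 9.52, below all activated samples (-0.60 ± 0.30, adjusted p = 0.171). Scap ran from 8.82 to 10.88 with a median of 9.93 (0.26 ± 0.37, adjusted p = 0.649). The 6 mevalonate enzymes had changes from -0.94 for Mvd to -0.23 for Pmvk, all negative and none called (2 with an unadjusted p under 0.05), although Idi1 and Pmvk changed sign without the lymphomas high in neutrophil markers.

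The 3 calls were each lost when any activated replicate was left out: without replicates 1, 2 and 3 the adjusted p was 0.0661, 0.108 and 0.0584 for Srebf2, 0.0674, 0.112 and 0.0549 for Msmo1, and 0.0696, 0.0909 and 0.0675 for Scd2. Without mPTCL 4 or 7, 5 and 6 genes were called lower. Acly was called higher without mPTCL 1, 4 or 5 (1.23, 1.22 and 1.20), on the same probe set, with which the other bright ones differ. With only the 3 lymphomas low in neutrophil markers, Srebf2 (-0.86, adjusted p = 0.0962), Msmo1 (-0.68, adjusted p = 0.130) and Scd2 (-1.44, adjusted p = 0.101) were not called.

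The lymphomas differed widely among themselves, and the mevalonate and sterol enzymes did so together. The mean of the 16 enzymes was 10.79 in mPTCL 7, 10.44 in mPTCL 2, 10.28 in mPTCL 3 and 10.14 in mPTCL 6, then 9.85 in mPTCL 8, 9.80 in mPTCL 1, 9.35 in mPTCL 4, 9.30 in mPTCL 9 and 9.05 in mPTCL 5. It was 10.30, 10.79 and 10.34 in activated cells and 9.59, 9.66 and 9.50 in resting cells, so the lymphomas span both normal states and run below the resting one. In mPTCL 7, 14 of the 16 enzymes lay above every resting array and 8 above every activated array. In mPTCL 5, 0 lay above every resting array and 9 lay below all of them. Such counts were not made over all tested genes, so they do not set these enzymes apart from other genes. Cyp51 shows the span, at 11.00 in mPTCL 7 and 10.62 in mPTCL 6, and at 8.08 in mPTCL 9 and 8.48 in mPTCL 4. Lss was highest in mPTCL 6 (10.51) and lowest in mPTCL 9 (8.21), Fdps highest in mPTCL 7 (11.49) and lowest in mPTCL 5 (9.35), and Idi1 highest in mPTCL 7 (11.95) and lowest in mPTCL 5 (9.57).

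Across the 9 lymphomas, which share an array type and scaling, Pearson's r between pairs of these 16 enzymes had a median of 0.65 over 120 pairs, and 115 pairs were above 0. Over all pairs of tested genes that vary the median was 0.01, and over the 45 pairs of the 10 fatty acid enzymes it was also 0.01. Markers of other cells moved with the level only in part. The 3 lymphomas with the lowest neutrophil means, mPTCL 3, 7 and 6 (5.59, 6.03 and 7.32), were among the 4 highest in the enzyme mean. The fourth, mPTCL 2, had a neutrophil mean of 10.01. In mPTCL 9 the neutrophil mean was 8.32 and the enzyme mean 9.30. That enzyme mean lay below the 9.80 and 9.85 of mPTCL 1 and 8, whose neutrophil means were 11.16 and 10.88. The lowest enzyme mean, in mPTCL 5, went with the highest neutrophil mean (12.17), the highest B cell mean (11.39) and the lowest T cell mean (8.78). The part of these cells in the result was not tested.

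**Figure D4:**
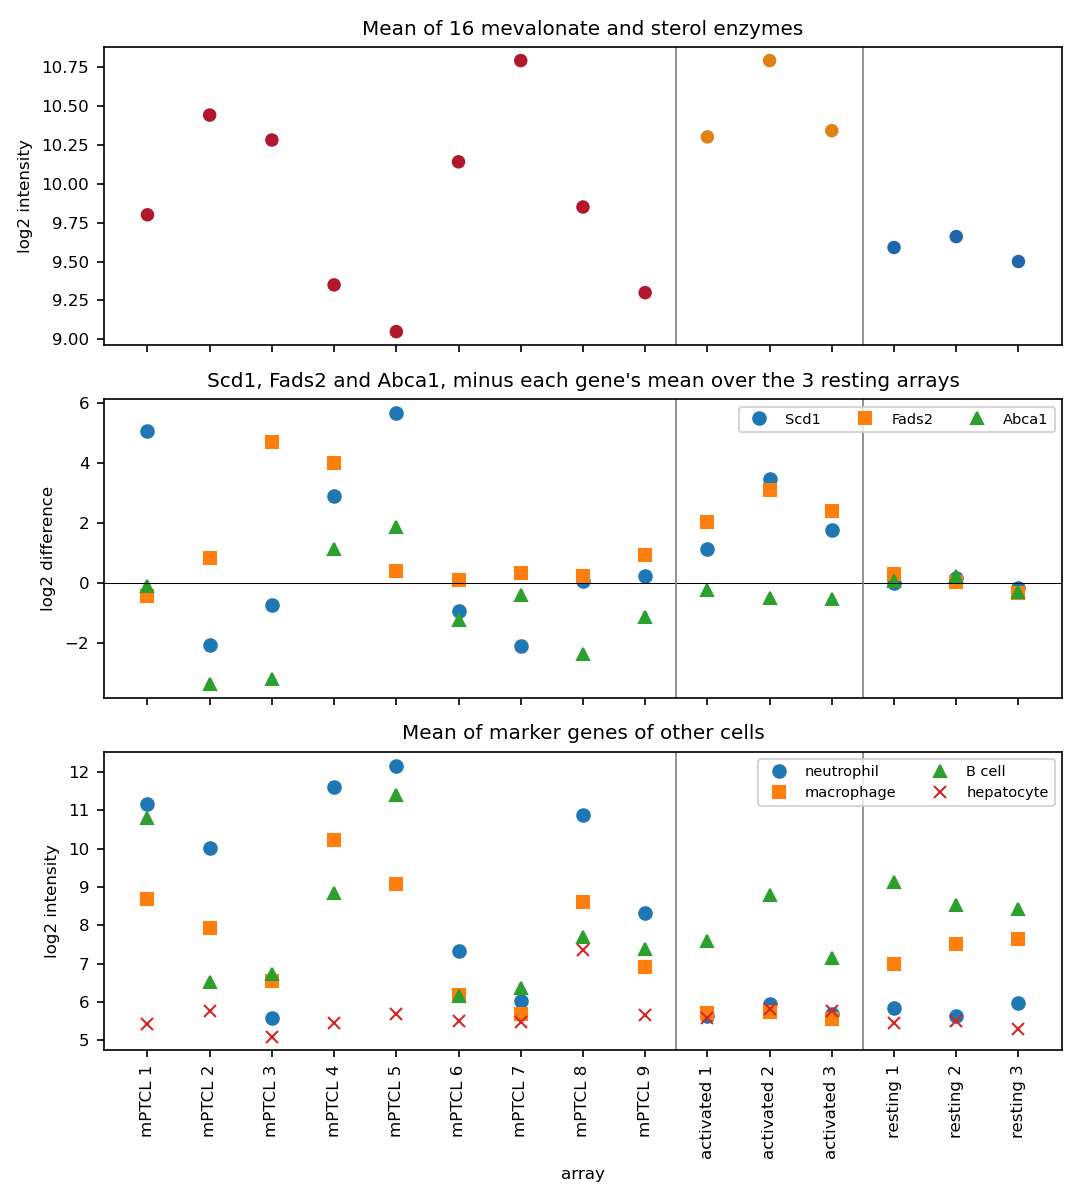
For each array, from the top: the mean log2 intensity of 16 mevalonate and sterol enzymes, the log2 difference of Scd1, Fads2 and Abca1 from their own resting mean, and the mean log2 intensity of marker genes of other cells. The enzyme mean runs from 9.05 in mPTCL 5 to 10.79 in mPTCL 7. Scd1 is high in mPTCL 1, 4 and 5, which have high macrophage and neutrophil markers. It is not high in mPTCL 8, which has high neutrophil markers and a macrophage mean of 8.62, not counted as high.

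Some genes stood apart from this shared pattern. Scd1 had the widest spread among lymphomas of the 34 genes (SD 2.94, wider than 99.5% of all tested genes). It was at 13.69 in mPTCL 5, 13.09 in mPTCL 1 and 10.92 in mPTCL 4, and at 5.93 to 8.25 in the other 6, against 9.15, 11.49 and 9.79 in activated cells. The B cell marker mean was 11.39, 10.79 and 8.84 in mPTCL 5, 1 and 4, against at most 7.70 in the other 6 lymphomas, and the macrophage mean was 9.08, 8.70 and 10.24, against at most 8.62. Of 3 fat cell markers, Adipoq was at 7.85 in mPTCL 5, 9.36 in mPTCL 4 and 5.14 in mPTCL 1 and at the floor in the other 6, Cidec was at the floor in all 3 of these lymphomas, and Fabp4 was at 6.20, 7.10 and 6.14 in them and at 6.94 in mPTCL 6, where Scd1 was low. mPTCL 8 had neutrophil and macrophage means of 10.88 and 8.62, near the 11.16 and 8.70 of mPTCL 1, with Scd1 at 8.08. Activated replicate 2, high in Scd1, had the highest B cell mean of its group (8.78, against 7.60 and 7.15). The resting arrays, however, had B cell means of 9.12, 8.54 and 8.44 with Scd1 at 8.03, 8.18 and 7.86. With all 9 lymphomas the change of Scd1 against activated cells was -1.22 ± 1.57 (limma adjusted p = 0.606). Leaving out mPTCL 1, 4 and 5 for their macrophage markers gave -3.04 (adjusted p = 0.00823). These are also the 3 lymphomas highest in Scd1, so the larger difference and its p follow from the choice and do not test the Scd1 level. The part of the other cells was not tested.

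Fads2 was high in mPTCL 3 (10.62) and mPTCL 4 (9.92), above all activated values of 7.94, 9.01 and 8.30, and at 5.47 to 6.84 in the other 7 lymphomas, near the resting values of 6.22, 5.94 and 5.56. Fads1, its neighbour in the genome and in the pathway, was highest in the same lymphomas, at 10.52 in mPTCL 4 and 10.02 in mPTCL 3, against at most 9.37 in the others. mPTCL 3 and 4 were also those with the lowest Cd3e values, and they differ in neutrophil markers (5.59 and 11.61). The exporter Abca1 was at 11.61 in mPTCL 5 and 10.90 in mPTCL 4 and at 6.38 in mPTCL 2 and 6.55 in mPTCL 3, with 9.53, 9.24 and 9.23 in activated cells and 9.82, 9.98 and 9.46 in resting cells. Its spread exceeded that of 94.8% of tested genes, and its mean did not differ from activated (-0.56 ± 0.96, adjusted p = 0.708) or resting cells (-0.98 ± 0.96, adjusted p = 0.505) beyond that spread. Macrophages also express Abca1. The macrophage marker mean was 10.24 and 9.08 in mPTCL 4 and 5, but 7.94 and 8.62 in mPTCL 2 and 8, where Abca1 was at 6.38 and 7.37, and 5.69 in mPTCL 7, where Abca1 was at 9.34. The part of macrophages was not tested. At the other end, Ebp, Srebf1 and Acaca varied little between lymphomas (SD 0.29, 0.36 and 0.36).

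Among related genes that are not in the list sterol and isoprenoid genes had 0 higher and 0 lower of 17 tested on activation (7 with an unadjusted p under 0.05), and 1 higher and 1 lower in each lymphoma comparison. Of 27 further fatty acid genes, 3 rose (11.1%, against 8.45% of all genes) and 0 fell (4.23% of all) on activation. In lymphomas 3 rose (11.1%, against 7.03%) and 2 fell (7.41%, against 6.84%) relative to resting cells, and 3 rose and 3 fell (11.1% each, against 7.04% and 8.28%) relative to activated cells. These shares are near those of all genes. Hacd1, a dehydratase of very long chain fatty acid elongation, was at 8.46, 8.73 and 8.68 in activated cells and at 6.73, 5.96 and 6.89 in resting cells (2.09 ± 0.29, limma adjusted p = 0.00319). It ran from 8.89 to 11.41 in lymphomas with a median of 10.84, above both normal states (3.82 ± 0.58 against resting, adjusted p = 8.91e-04, and 1.73 ± 0.56 against activated cells, adjusted p = 0.0438). Fabp5, a fatty acid carrier, rose by 1.12 ± 0.31 on activation and by 3.20 ± 0.83 in lymphomas over resting cells, where mPTCL 6 and 7 were highest (14.24 and 14.10). Dgat1, which makes triglycerides, rose by 1.17 ± 0.14 on activation, and Tmem97, a sterol-regulated membrane protein, by 2.58 ± 0.59 in lymphomas over resting cells. Acsl4, which charges arachidonic acid, was at 8.88 to 10.45 in lymphomas and at 12.16, 12.19 and 12.29 in activated cells (-2.56 ± 0.29, adjusted p = 2.25e-04), and also fell against resting cells (-1.87 ± 0.30). The elongase Elovl7 fell by 1.95 ± 0.49 against activated cells and fell by 2.84 ± 0.48 against resting cells, and since 4 of 9 lymphomas were at the floor these values are lower bounds on the size of the fall. Erlin1, which takes part in sterol-dependent control at the endoplasmic reticulum, was higher in lymphomas than in activated cells (1.72 ± 0.48, adjusted p = 0.0240).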

How the data were processed

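RNA of 9 lymphomas, 3 activated and 3 resting T cell samples was measured on mouse expression arrays. The deposited values are linear MAS5 intensities per probe set, made by the authors with Affymetrix Expression Console, per the submitters' processing notes (version 1.1 is named for the lymphomas). Each array's trimmed mean was 500. From these, log2 values were computed after a floor of 32. Of the probe sets, 34958 have 1 gene symbol in the platform annotation, 932 several and 9211 none. The probe set with the highest mean stood for its gene, and a gene was tested where 3 or more arrays reached an intensity of 100 (11902 of 18193). Each pair of groups was fitted with limma 3.58.1 (lmFit, eBayes with trend) in R 4.3.3, with Benjamini-Hochberg adjustment over all tested genes, and called at an adjusted p under 0.05 and at least 2-fold. The fit was tested on simulated data. Genes given in every sample were the 5 regulators and, of those called in a comparison, the 4 with the largest changes in each other role; others that are given by array for their spread (Fads1, Abca1) were chosen after their values were seen. Of related genes, at most 4 called ones per comparison with the largest changes were named. The genes, gene lists and markers were chosen with earlier results of these data known. Other floors, filters, normalizations, probe set rules, fits and left-out arrays were tried. Promoters came from RefSeq (GRCm38.p6), with an entry for 27 of the 35 genes. A planned comparison of protein sequences was not run. The number of arrays limits the precision.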

Additional observations from a re-analysis of the deposited data

Results flagged for a closer look

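In the 9 lymphomas, 3 of the 34 genes had 1 array far from the rest, by the gap to its nearest neighbour relative to the whole range (Dixon's test). Chance alone marks about 1 in 20 groups. Insig1, which restrains SREBP processing, was at 6.80 in mPTCL 9, with the nearest lymphoma at 8.41. Nsdhl, a sterol demethylation enzyme, was at 11.26 in mPTCL 7, with the nearest at 10.34. Ebp, a sterol isomerase, was at 10.50 in mPTCL 5, with the nearest at 10.98.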

How the results depend on the processing

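On activation 13 genes were called higher and 0 lower. The counts were 2 higher with all 15 arrays in 1 fit, and 23 higher and 1 lower by adjusted p alone. Quantile normalization also gave 1 lower (Scap). Leaving out 1 array gave 10 to 13 higher and 0 to 1 lower. Whether replicate numbers pair the samples is not stated. Deviations of same-numbered samples correlated at -0.01, 0.05 and -0.01, which cannot settle it. With the replicate block the counts were 13 and 0. In lymphomas against resting cells 3 were called higher and 0 lower. The count higher was 1 with the mean of probe sets, 5 with all 15 arrays in 1 fit, 6 with array weights, and 9, 5 and 8 without the lymphomas high in neutrophil, B cell and macrophage markers. The count lower was 1 with a filter at 200, with the mean of probe sets, without probe sets matching several transcripts and with all 15 arrays in 1 fit, and 2 with array weights. Leaving out 1 array gave 0 to 5 higher and 0 to 2 lower. In lymphomas against activated cells 0 were called higher and 3 lower. The count higher was 1 with all 15 arrays in 1 fit, with array weights and without the lymphomas high in B cell or macrophage markers. The count lower was 7 with the mean of probe sets, 5 without probe sets matching several transcripts, 5 with array weights and 1 without the lymphomas high in neutrophil markers. Leaving out 1 array gave 0 to 1 higher and 0 to 6 lower. The cause of these moves was not tested. Among the called genes given in every sample, none changed sign in the comparison where it was called, under any alternative that gave it a value. Fads1 was not followed across the alternatives, and Pmvk had no value without probe sets matching several transcripts. Values near the floor carry little information, and 3 arrays per normal group limit what can be called.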

Other observations

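A further list, outside the 35, held oxysterol receptor (LXR) genes and targets, and 10 of its genes were tested. The receptors Nr1h3, Rxra and Rxrb are among them, so the list is not of LXR targets alone. On activation 0 were called higher (8.45% of all genes) and 1 lower (10.0%, against 4.23% of all genes). An unadjusted p under 0.05 by limma was found for 3. The one that fell was Apoe, a lipid carrier protein that macrophages also make, with a change of -1.99 ± 0.28 (limma adjusted p = 0.00325). Among lymphomas Apoe was at 14.74 in mPTCL 4 and 14.37 in mPTCL 5, where the macrophage marker means were 10.24 and 9.08, and at 7.60 in mPTCL 7, where that mean was 5.69. Of the 34 genes, 24 had several bright probe sets, and these differed in the sign of the change for 4 genes on activation, 7 in lymphomas against resting cells and 4 in lymphomas against activated cells.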
